A study of Bos taurus with 6 samples.

Results

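Transcript levels were described in whole blood of wild type cattle, on the 3 arrays of the 6 in the series whose titles give wild type blood. Each sample was jugular vein blood of a female aged 3 years, hybridised to 1 array, and the samples are called wild type replicates 1, 2 and 3. The labels number them as replicates without stating that they came from separate animals. They are called animals below on that reading, and the spread between them may be partly technical. The other 3 samples were from cattle with the fat-1 transgene, a desaturase gene of a nematode, and were not used. A probe counted as measured when its spot was flagged well above background on all 3 arrays, which left 24195 of the 43653 probes other than controls, and 9852 of the 14892 gene symbols on the array with at least 1 such probe. No groups were compared and no test was made: all counts, levels and ranges describe these 3 animals.

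Whole blood RNA comes mainly from white cells, with a share from platelets and from young red cells that have not yet lost their RNA. Neutrophils and monocytes carry the oxidative burst, calprotectin and lysozyme, lymphocytes carry antigen receptors and cytotoxic granules, and all nucleated cells present peptides on MHC class I. Cattle blood is known for many gamma-delta T cells that bear WC1 scavenger receptors, and for neutrophils that store cathelicidins made earlier, in the marrow.

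A level is the log2 of the processed intensity of a probe less the 75th percentile of its array, so that 0 is the brightness of that percentile, and 1 unit is a doubling. The range is the highest minus the lowest level of the 3 animals, and a range of 1 is a 2-fold range. A gene is given by its brightest measured probe. Brightness depends on the probe as well as on the RNA: in 5327 genes with a pair of measured probes that do not overlap, the median gap between them was 1.92, or 3.78-fold. The order of genes by brightness is therefore an order of signals, not of RNA amounts. In whole blood, fewer cells of a type and less RNA per cell cannot be told apart.

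Replicates 1, 2 and 3 had 75th percentiles of 742, 611 and 886 intensity units. The share of probes well above background was 60.2% ± 1.56 (SD, n = 3), 15139 probes were so on no array, and no spot carried a saturation flag. Levels of measured probes correlated across probes at 0.981 between replicates 1 and 2, 0.985 between 1 and 3 and 0.971 between 2 and 3. All 3 arrays lay on 1 slide, so that animal and array position cannot be told apart. Precision is limited by having 3 arrays.

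The brightest signals were those of protein synthesis. Of the 30 gene symbols with the highest mean level, 22 encode cytosolic ribosomal proteins, and of the highest 100, 63 do. RPS3, a protein of the small ribosomal subunit, led with 9.36, 9.62 and 9.04 in replicates 1, 2 and 3, at a probe on chromosome 15 (54165442 to 54165847, build Btau_3.1). RPLP2, of the large subunit's stalk, stood at 9.04, 9.34 and 8.75. RPS27A, made as a fusion with ubiquitin, stood at 9.08, 9.28 and 8.76. Other ribosomal proteins in the first 30 included RPL29, RPS20, RPS28, RPL18, RPS19, RPS18, RPL23A, RPS13, RPLP0, RPS10, RPL7A, RPS2, RPL31, RPS15, RPL27A, RPS16 and RPS21. All 76 ribosomal protein genes on the array were measured, with a median level of 8.44, and only 1 of them had a mean level below 0, at -2.38.

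The other 8 places among the 30 went to genes of several kinds. BOLA, named for MHC class I of cattle, stood at 9.30, 9.46 and 8.95, and its 5 probes, all measured, had mean levels from 4.06 to 9.24. The actin-binding peptides TMSB4X and TMSB10, which hold actin in monomers, stood at 8.83, 9.06 and 8.66 and at 8.83, 9.06 and 8.46. ACTB itself stood at 8.76, 9.07 and 8.47, TPT1, the translationally controlled tumour protein, at 8.76, 9.01 and 8.49, and SLC25A6, an exchanger of ADP and ATP in mitochondria, at 8.63, 9.01 and 8.41. FTH1, the heavy chain of ferritin, stood at 8.65, 8.92 and 8.34, and its 6 probes had ranges from 0.58 to 0.65. Mitochondrial messages were among the first 100 as well, with COX3 at a mean of 8.57, COX2 at 8.56, COX1 at 8.43, ATP6 at 8.09 and CYTB at 7.92, named here after their values were seen.

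**Figure D1:**
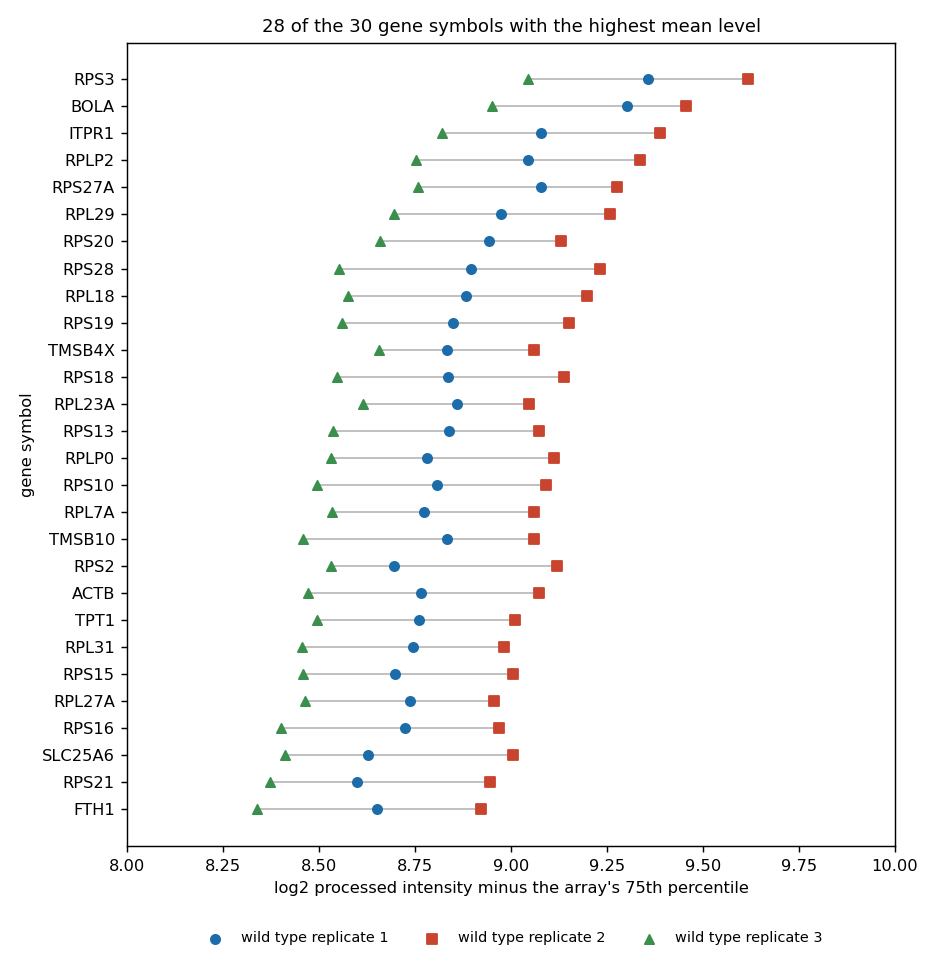
Levels of 28 of the 30 gene symbols with the highest mean level, 1 row per gene, with the level on the horizontal axis (log2, the array's 75th percentile at 0) and a marker for each of the 3 wild type animals. Replicate 2 is the highest and replicate 3 the lowest in all 28 rows, and the ranges lie between 0.40 and 0.68.

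A probe named for ITPR1, an inositol trisphosphate receptor that releases calcium from the endoplasmic reticulum, ranked 3, at 9.08, 9.39 and 8.82. The 7 probes of that name differed widely. The files place the 3 bright ones on chromosome 22 between 22199227 and 22199334 of Btau_3.1, and had mean levels of 9.09, 8.82 and 8.48. Of the other 4, 1 probe at 22198369 to 22198428 had a mean of 1.27, 1 at 22199037 to 22199096 had -2.40, and those at 22258200 to 22258259 and at 22347085 to 22349659 were well above background in no animal. The letters of a pair of bright probes are shown because the rank of the gene rests on them and not on its other 4 probes. Whether they match other RNAs was not tested, so their brightness is not read as a level of ITPR1 RNA.
ITPR1 probe at 22199227: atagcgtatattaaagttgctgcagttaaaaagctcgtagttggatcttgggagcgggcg
ITPR1 probe at 22199276: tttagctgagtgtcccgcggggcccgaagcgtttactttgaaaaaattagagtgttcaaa

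The brightest genes differed less between animals in raw brightness than in scaled level. The brightest 100 genes had a median range of 0.54 after the 75th percentile was taken off, with 95 of them highest in replicate 2 and 99 lowest in replicate 3, against 54% and 52.8% of all genes. Before scaling, their median range was 0.10, or 1.07-fold, and after quantile normalization 0.09. The 75th percentiles themselves lay 0.54 apart, from replicate 2 to replicate 3. Among probes with a mean level of 8 or more, the median deviation of replicate 2 was 0.27 and that of replicate 3 -0.27, whereas between -2 and 0 these were 0.00 and -0.05. The shares over all genes given below for the highest or lowest animal do not take this dependence on level into account. The range of most bright genes was thus the size of the offset between arrays, and whether it lies in the blood or in the scaling cannot be told apart. The brightest 100 probes held 18.7%, 18.9% and 17.8% of all signal, nearly alike in the 3 animals.

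**Figure D2:**
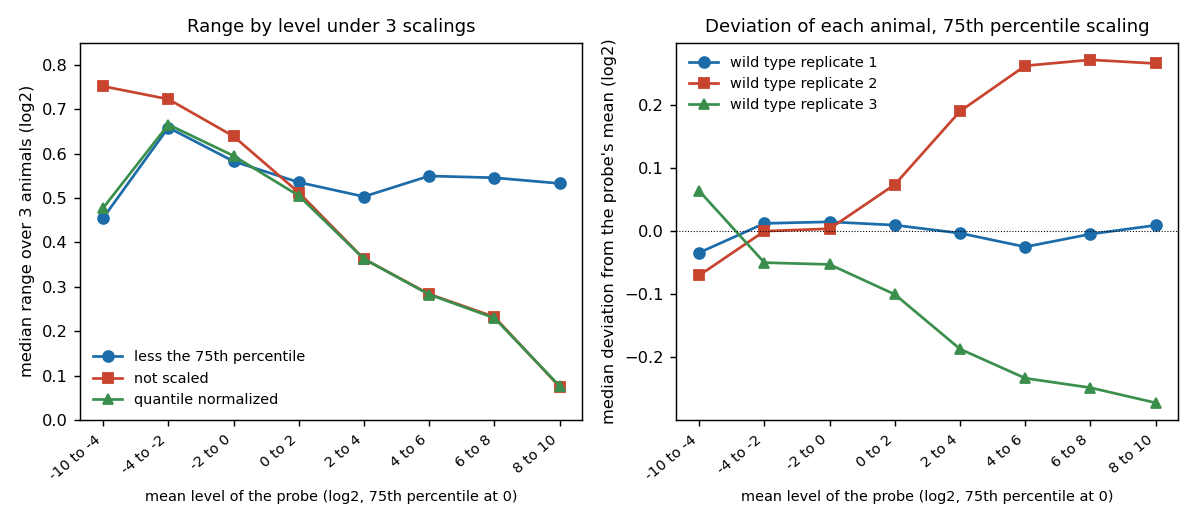
Left, the median range over 3 animals (log2) of probes binned by mean level, under 3 scalings; right, the median deviation of each animal from the probe's own mean. At the bright end the range is 0.53 after 75th percentile scaling and 0.07 unscaled, while replicates 2 and 3 part to 0.27 and -0.27.

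The 28 gene lists, of blood cell types, cell programmes and other tissues, were read against these shares over all genes: 66.2% measured, 58.3% of the measured with a mean level above 0, and 15.7% with a 2-fold range. Among the 26 lists with at least 5 measured members, 18 had a median level above 0 and 15 a median range above the 0.57 of all genes. Translation factors had a median level of 6.21 (22 of 22 measured), with EEF1A1, which brings aminoacyl-tRNA to the ribosome, at 8.47, 8.61 and 8.11. Genes of the actin cytoskeleton and leukocyte motility had 5.84 (34 of 34), with the myosin light chain MYL6 at 8.12, 8.80 and 7.87 and the intermediate filament VIM at 8.04, 8.54 and 7.84. Housekeeping genes had 5.89 (21 of 22), nuclear-encoded subunits of oxidative phosphorylation 4.91 (76 of 76), glycolysis 4.78 (18 of 18) and the proteasome 4.08 (33 of 33). Of these 6 lists, oxidative phosphorylation had no member with a 2-fold range, the proteasome and the translation factors 2 each, and the others 1 each.

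**Figure D3:**
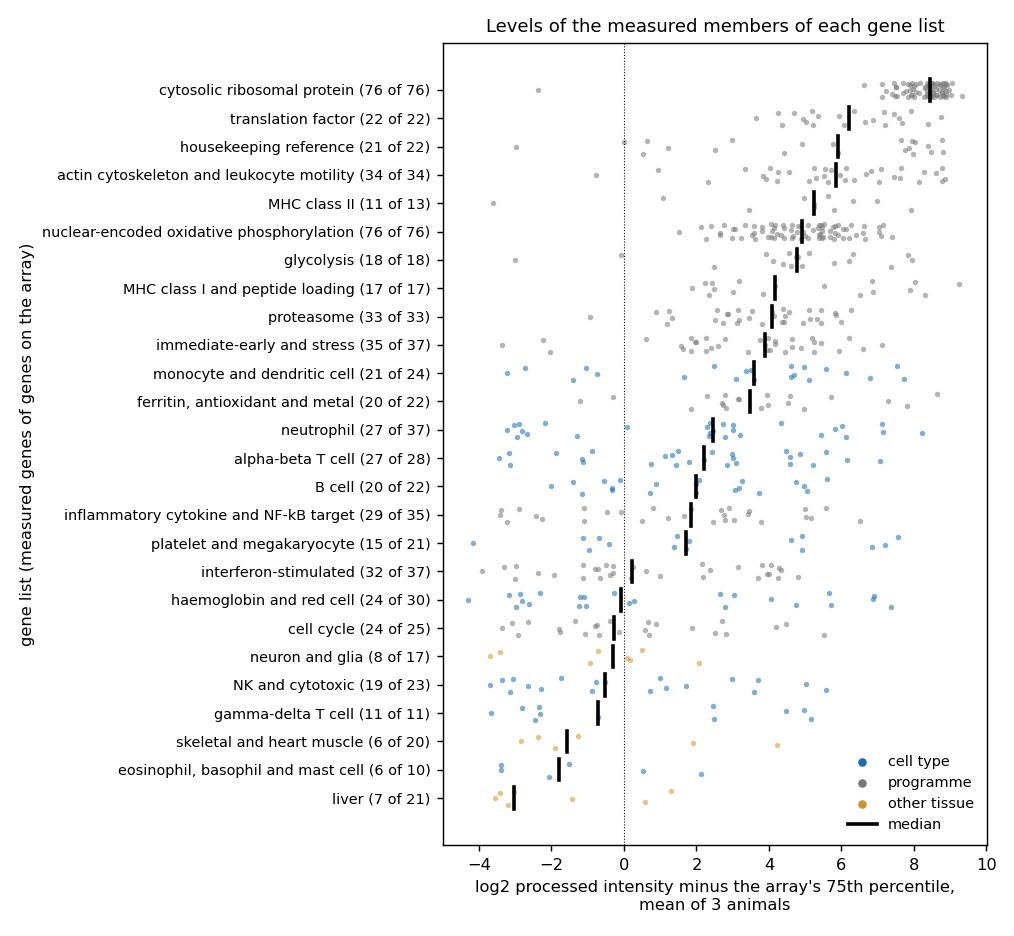
Mean level over 3 animals of each measured member of 26 gene lists, 1 dot per gene, with the list's median as a bar, the level on the horizontal axis (log2, 75th percentile at 0) and the measured genes of those on the array in brackets. Ribosomal proteins lie at a median of 8.44, and liver, eosinophil and muscle lists lie lowest.

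All 17 genes of MHC class I and peptide loading were measured and above 0, with a median of 4.18, and 2 had a 2-fold range. B2M, the light chain of class I, stood at 8.08, 8.09 and 7.94, the non-classical heavy chain gene BOLA-NC1 at 8.33, 8.66 and 7.93, and PSMB9 and PSMB8 of the immunoproteasome at 6.67, 7.17 and 6.72 and at 6.32, 6.93 and 6.27. The peptide transporter TAP1 was the dimmest of them at 1.74, 2.20 and 1.67. MHC class II, the display of B cells, monocytes and dendritic cells, had a median of 5.25 in 11 of 13 genes, and 5 of these had a 2-fold range. Its BOLA-DRA chain stood at 8.13, 8.05 and 7.57 and the invariant chain CD74, which guards the peptide groove, at 6.52, 6.59 and 5.85.

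Neutrophil genes ran from among the brightest signals to none. Calprotectin and its relative were bright, with S100A12 at 8.37, 8.33 and 7.99, S100A8 at 7.17, 7.37 and 6.82 and S100A9 at 5.27, 5.82 and 5.23, as were the integrin chain ITGB2 at 7.28, 7.4 and 6.76, and the NADPH oxidase subunits CYBA at 6.03, 6.64 and 5.71 and NCF4 at 5.78, 6.25 and 5.44. Of 37 neutrophil genes on the array 27 were measured, with a median of 2.45, and 11 had a 2-fold range. The chemokine receptors CXCR1 and CXCR2, which define the mature cell, were well above background in no animal, and likewise CAMP, CATHL3, CATHL4, ALPL and TNFAIP6, in all 7 of 37, beside 24.8% of all genes on the array. CATHL1, CATHL2 and CATHL5 were so in replicate 2 alone. Granule enzymes were dim and highest in replicate 2, with MPO, the myeloperoxidase of first granules, at -3.92, -1.39 and -3.51, MMP9, a gelatinase, at -2.82, -0.78 and -2.97, and ELANE, the neutrophil elastase, at -1.36, -0.51 and -2.03. Replicate 2 was the highest animal in 19 of the 27, beside 54% of all genes. The neutrophil list's median deviation in replicate 2 was 0.38, and 0.15 after quantile normalization.

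Monocyte and dendritic cell genes had the highest median of the 9 cell type lists, 3.59 in 21 of 24 genes, with 6 of them at a 2-fold range. FCN1, a ficolin, stood at 7.44, 8.11 and 7.60, CST3, a cysteine protease inhibitor, at 7.64, 7.84 and 7.11, and LYZ, lysozyme, at 6.71, 6.86 and 6.76, a range of 0.15. The signalling adaptors TYROBP and FCER1G stood at 5.89, 6.78 and 5.74 and at 4.95, 5.64 and 4.73, and the growth factor receptor CSF1R at 5.50, 6.04 and 5.18. CD14, the lipopolysaccharide co-receptor, stood at 3.49, 3.59 and 3.01. The widest members were CD1B, a lipid-presenting molecule, at -0.84, -2.07 and -0.28, and the matrix proteoglycan VCAN at -1.48, -0.12 and -0.60. FCGR1A and CD209 were measured in replicates 1 and 2 and XCR1 in none. Eosinophil, basophil and mast cell genes were dim, with a median of -1.79 in 6 of 10. Their brightest was the eotaxin receptor CCR3 at 1.94, 2.52 and 1.93, and the widest ALOX15, a lipoxygenase, at -4.12, -2.36 and -3.69. IL5RA and CPA3 were well above background in no animal.

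Alpha-beta T cell genes were measured in 27 of 28 cases, with a median of 2.22, and 6 had a 2-fold range. The signalling chain CD247 stood at 6.90, 7.44 and 6.82, CD3E at 5.87, 6.61 and 5.98, the kinase LCK at 5.37, 5.95 and 5.39, and the lineage factor TCF7 at 5.07, 5.55 and 5.07. The co-receptor CD4 stood at 4.53, 4.98 and 4.25 and CD8A at 2.41, 3.13 and 3.02. CTLA4, an inhibitory receptor of activated T cells, was well above background in no animal. The widest were TRAT1, an adaptor of the receptor complex, at -3.36, -4.0 and -2.14 and CD5 at 0.71, 2.29 and 0.97. Replicate 2 was highest in 21 of the 27, beside 54% of all genes, with a median deviation of 0.38 that was 0.15 after quantile normalization.

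Of 23 gamma-delta T cell genes listed only 11 were on the array. All 11 were measured and none had a 2-fold range, with a median level of -0.73. The scavenger receptor genes CD163L1 and WC1.3 stood at 4.97, 5.72 and 4.79, over 6 probes all measured, and at 2.33, 2.80 and 2.21. TRGC6, a constant region of the gamma chain, stood at -2.31, -2.40 and -2.68, and SOX13, a lineage factor, at -3.12, -2.63 and -2.67. BLK and GATA3, also in this list, are in the B cell and alpha-beta T cell lists too, at 4.88, 5.27 and 4.76 and at 4.27, 4.82 and 4.29.

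NK and cytotoxic genes had a median of -0.54 in 19 of 23, and 7 had a 2-fold range. Replicate 1 was lowest in 13 of the 19, beside 17.5% of all genes. CCL5, a chemokine stored in killer cells, stood at 5.05, 6.2 and 5.45, GNLY, a pore-forming granule protein, at 4.70, 5.04 and 5.29, and the receptor NCR3 at 2.94, 4.17 and 3.69. The granule protease GZMB was the widest, at -0.64, 3.48 and 2.29. Perforin, PRF1, stood at 0.68, 1.49 and 0.83, and GZMA at -3.54, -3.24 and -3.34. The killer lectin receptors KLRD1 and KLRF1 were well above background in replicates 1 and 3 only, and IFNG in none.

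B cell genes were mostly highest in replicate 1, in 15 of 20 measured genes, where 21% of all genes had replicate 1 highest. The receptor chain CD79A stood at 6.11, 5.62 and 5.08, TNFRSF13C, a survival receptor, at 5.41, 4.42 and 4.38, MS4A1, also known as CD20, at 2.75, 1.29 and 1.92, and the adaptor BANK1 at -0.23, -1.85 and -1.42. The list's median deviation in replicate 1 was 0.42, and 0.39 to 0.41 under the other scalings and background correction. The median level was 1.98 and 9 of the 20 had a 2-fold range. XBP1, of antibody-secreting cells, at 4.85, 5.42 and 4.91, and JCHAIN, which links IgM and IgA, at 3.61, 3.43 and 4.12, did not follow that order. CR2 was well above background in no animal and TCL1A in replicate 2 only.

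Platelet genes were the steadiest of the cell type lists, with a median range of 0.41 and 1 of 15 measured genes at a 2-fold range. GNG11, a G protein subunit, stood at 7.53, 7.68 and 7.52, the chemokine PF4 at 7.38, 7.30 and 6.97, F13A1, the clotting factor that cross-links fibrin, at 6.88, 7.22 and 6.40, and MYL9 at 5.04, 4.88 and 4.82. PPBP, another platelet chemokine, stood at 1.91, 1.75 and 1.73. The adhesion molecule SELP was the exception, at 1.42, 2.73 and 1.00. Of the genes that define the lineage, GP1BA and GP5 were measured in replicate 2 only and VWF in none.

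Immediate-early and stress genes had a median of 3.89 in 35 of 37, with the small heat shock protein HSPB1 at 7.22, 7.56 and 6.60, the phosphatase DUSP1 at 5.73, 6.11 and 5.97 and the transcription factor JUN at 5.16, 5.95 and 5.17, and 7 of the 35 had a 2-fold range. Inflammatory cytokines and NF-kB targets had 1.85 in 29 of 35, with 11 at a 2-fold range, and replicate 3 was highest in 13 of them, beside 25% of all genes. CCL4 stood at -0.14, 0.58 and 1.99, CXCL2 at 1.72, 2.97 and 3.69 and the inhibitor NFKBIA at 6.22, 6.98 and 6.36. IL6, CCL2 and PTX3 were well above background in no animal. Interferon-stimulated genes had 0.22 in 32 of 37, with 11 at a 2-fold range, and replicate 2 was lowest in 17 of the 32, beside 29.7% of all genes. The antiviral GTPase MX1 stood at 4.89, 3.42 and 3.69 and was highest in replicate 1, IFI44 at -0.63, -2.36 and -0.40 was lowest in replicate 2, and BST2, which tethers virus particles, at 0.46, 0.96 and -0.85 was lowest in replicate 3. Cell cycle genes had -0.26 in 24 of 25, led by the thymidine kinase TK1 at 5.36, 5.92 and 5.25, and 3 had a 2-fold range. Ferritin, antioxidant and metal genes had 3.46 in 20 of 22, with the glutathione peroxidase GPX1 at 7.78, 8.29 and 7.34, and 1 had a 2-fold range, the haem oxygenase HMOX1 at 4.64, 5.24 and 3.84.

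The tissue label was checked against 4 lists of other tissues and against sex. Liver genes were measured in 7 of 21 cases, muscle genes in 6 of 20, neuron and glia genes in 8 of 17 and milk genes in 4 of 9, all under the 66.2% of all genes, with medians of -3.04, -1.59, -0.31 and 0.01. The medians do not part these tissues from blood, since the gamma-delta T cell, NK and eosinophil lists had -0.73, -0.54 and -1.79. The eosinophil list was also under the share of all genes, with 60% measured. Albumin, ALB, was measured in replicate 2 only and the fibrinogen chains FGA and FGG in no animal, nor were CKM, MYH2, TTN, NEFL, SYT1 and CSN3. Some probes of these lists were nonetheless bright, with the muscle filament gene DES at 4.08, 4.66 and 3.95 at 1 of its 4 probes, and XDH, an oxidase also made outside the mammary gland, at 6.05, 6.03 and 5.76. XIST, the RNA that silences an X chromosome in female cells, was measured at 9 of 11 probes, at 1.68, 1.60 and 2.70. Of the Y-linked genes, DDX3Y, EIF1AY, USP9Y, SRY and EIF2S3Y were well above background in no animal, and ZFY, which has a close relative on the X chromosome, stood at -2.90, -3.46 and -2.52.

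Most transcripts were alike in the 3 animals. The median range was 0.57 over probes, or 1.48-fold, and 3900 probes (16.1%) had a 2-fold range, 271 a 4-fold and 22 a 16-fold one. Over genes the counts were 1548 (15.7%), 103 (1.05%) and 10. Spots of the same probe on the same array varied much less. In 29 measured probes printed at 4 spots, the median SD over spots was 0.065 and the median SD over animals 0.28, and in 24 of the 29 the animals' SD was above the spots' SD on every array. Only the animals' SD holds the scaling, labelling and hybridisation of separate arrays. The median range of these probes over animals was 0.56, beside the 0.54 between the 75th percentiles. Where the first probe of a gene had a 2-fold range (683 of 5327 genes), a second probe that does not overlap it had one too in 57.7%, against 14.1% over all these genes, and the same animal was highest in 83.7%, against 75.1%. Of the 2-fold probes, replicate 3 was the highest in 55.2% and replicate 2 the lowest in 59.1%, against 26.8% and 32.7% of all measured probes, among which replicate 2 was most often the highest (49.2%) and replicate 3 the lowest (50.4%). Leaving out replicate 2, the count of 2-fold probes was 1003, without replicate 3 it was 1454, and without replicate 1 it was 3142.

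**Figure D4:**
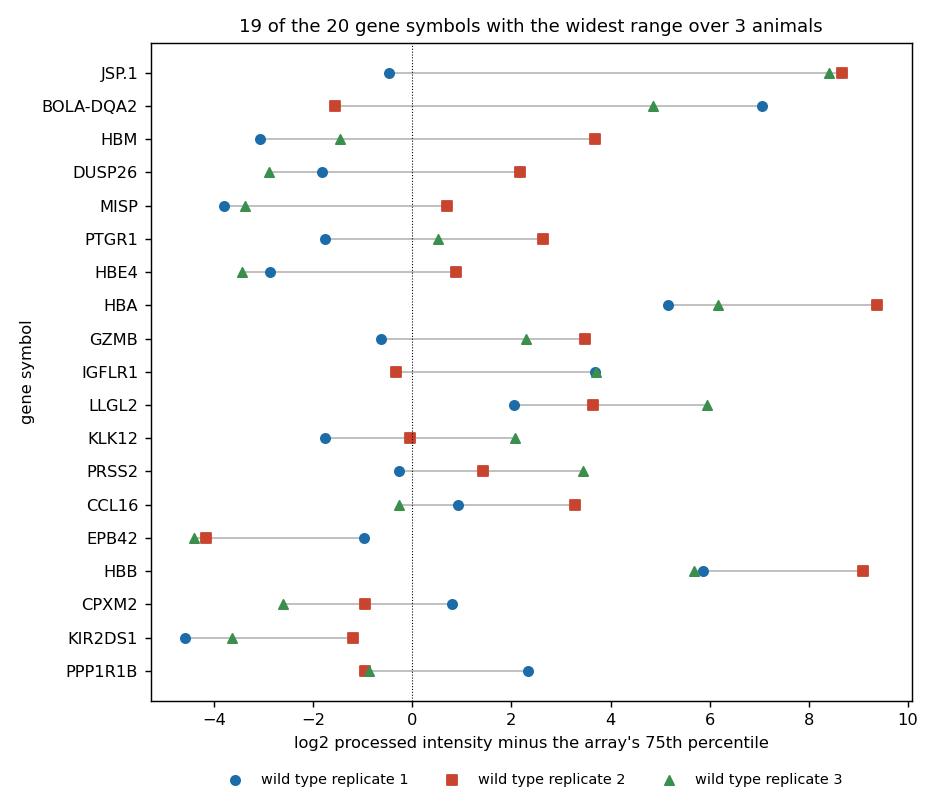
Levels of 19 of the 20 gene symbols with the widest range, 1 row per gene, with the level on the horizontal axis (log2, 75th percentile at 0) and a marker for each of the 3 wild type animals. In 11 rows replicate 2 stands highest of the 3, among them the globins HBM, HBA, HBB and HBE4, and in 4 rows each replicate 1 or replicate 3 does.

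Red cell transcripts were mostly highest in replicate 2. HBA, the alpha chain of haemoglobin, stood at 5.17, 9.38 and 6.16, and HBB, the beta chain, at 5.87, 9.09 and 5.68, so that replicate 2 was 18.5-fold above the lowest animal for HBA and 10.6-fold for HBB. HBG, named for the fetal chain, stood at 6.60, 9.09 and 6.42, and HBM, an alpha-like globin of young red cells, at -3.08, 3.69 and -1.46. Of the other measured HBG probes, 1 stood at 1.71, 5.07 and 1.93, and 1 whose position overlaps it at 0.29, 0.84 and 0.89, without the excess in replicate 2. Globin genes are near-identical copies in places and can share signal. Outside the globins, ALAS2, the first enzyme of haem synthesis in red cell precursors, stood at 1.96, 3.83 and 2.59, the carbonic anhydrase CA2 at 0.10, 1.3 and -0.57, and the erythroid factors KLF1 and GATA1 at -3.33, -1.89 and -3.73 and at -1.53, -0.29 and -1.87. AHSP, which chaperones free alpha chains, stood at -2.85, -1.43 and -2.72. In all, 24 of 30 genes of the list were measured, 12 had a 2-fold range and 19 were highest in replicate 2, beside 54% of all genes, with a median deviation there of 0.56 that was 0.45 after quantile normalization.

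Not every red cell gene followed. SLC25A37, the iron importer of mitochondria, stood at 2.71, 2.63 and 2.64, BNIP3L, which clears mitochondria from maturing red cells, at 3.00, 3.14 and 2.99, and the anion exchanger SLC4A1 at -4.28, -4.32 and -4.32, near the lowest signals that count as measured. EPB42, a membrane skeleton protein, went the other way at its brightest probe, with -0.98, -4.16 and -4.40, but a probe that overlaps it had -5.66, -3.98 and -4.69, well above background in replicate 2 only, and a further one -4.42, -2.88 and -3.20. The 10 measured probes of HBA, HBB, HBG, HBM, HBZ, HBQ1 and HBE4 together held 0.10%, 0.70% and 0.12% of all signal in replicates 1, 2 and 3. The second HBM probe, on chromosome 25 at 667723 to 667782 of Btau_3.1, was well above background in replicates 2 and 3 only, at 1.97 and -3.43, and is shown as the widest of the globin probes.
HBM probe at 667723: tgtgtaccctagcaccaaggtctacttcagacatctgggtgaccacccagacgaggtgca

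Beyond the red cell, several genes of the widest 20 were carried by more than 1 probe. PTGR1, a reductase that inactivates prostaglandins and leukotrienes, was measured at 5 probes, and each had replicate 2 highest and replicate 1 lowest, with ranges from 4.21 to 4.54 and levels of -1.76, 2.63 and 0.52 at the brightest. GZMB was measured at 4 probes with ranges from 3.46 to 4.12, replicate 1 being the lowest at each. CCL16, a chemokine, stood at 0.92, 3.28 and -0.27 and its second probe had a range of 3.37. PPP1R1B, a phosphatase inhibitor, stood at 2.34, -0.96 and -0.88, with a range of 3.75 at its second probe.

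Others of the widest 20 rested on 1 measured probe. DUSP26, a phosphatase, stood at -1.82, 2.16 and -2.89 and MISP, an actin-binding protein of the mitotic spindle, at -3.81, 0.71 and -3.37, and neither had another measured probe. HBE4, an embryonic globin, stood at -2.87, 0.89 and -3.43 and KIR2DS1, named for a killer cell receptor, at -4.58, -1.19 and -3.63. CPXM2, of the carboxypeptidase family, stood at 0.80, -0.95 and -2.60, and its second probe was well above background in replicates 1 and 2 only. In 4 genes replicate 3 was highest. They were LLGL2, of cell polarity, at 2.06, 3.66 and 5.94, the protease gene KLK12 at -1.76, -0.05 and 2.08, and PRSS2, named for a trypsin, at -0.27, 1.43 and 3.44, and IGFLR1, a receptor of the TNF receptor family, which was close in replicates 1 and 3 and low in replicate 2, at 3.69, -0.34 and 3.71.

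The 2 genes with the widest ranges were MHC genes, which are known to differ in sequence and in number from animal to animal. Of 82 probes described as MHC, 65 were measured in all animals, and 21 of these (32.3%) had a 2-fold range, beside 16.1% of all probes. Another 9 were well above background in 1 or 2 animals and 8 in none. JSP.1, a class I gene on chromosome 23 (28598893 to 28598952), stood at -0.47, 8.66 and 8.40, so that replicate 1 was 561-fold below replicate 2. Its second probe stood at -3.82, 3.98 and 5.41, and its other probe, at 28601451 to 28601510, at 4.41, 3.50 and 3.47, with replicate 1 the highest. BOLA-DQA2, an alpha chain of class II, stood at 7.06, -1.56 and 4.85, and at 4.89, 1.44 and 3.24 at its other probe.

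Several MHC probes were on in some animals and off in others. A probe for BOLA-DQB1 stood at 7.23 and 3.19 in replicates 1 and 3, and was not well above background in replicate 2, at least 1055-fold lower than the mean of the other two. The same gene's brightest probe stood at 6.85, 7.77 and 6.33. A pair of HLA-DQA2 probes were likewise off in replicate 2, at 3.60 and 1.11 and at 2.96 and 1.52 in replicates 1 and 3. BOLA-DQA3 was on in replicate 3 alone, at 5.29 and 2.17 in its 2 probes, the brighter at least 1128-fold above the mean of the others, and so was another HLA-DQA2 probe, at 3.17. Further HLA-DQA2 probes were on in all animals, at 4.96, 4.30 and 4.21 and at 2.98, 2.91 and 1.61. A pair of BOLA-N probes of class I were off in replicate 1, at 6.87 and 6.0 in replicate 2 and 1.92 and -1.10 in replicate 3. Further BOLA-N probes were on in all animals, at 4.28, 5.53 and 4.51 and at 4.05, 5.16 and 5.04. At these DQB1 and HLA-DQA2 pair probes replicate 1 was brightest and replicate 2 off. At the first BOLA-N pair and at 2 of the 3 JSP.1 probes replicate 1 was off or lowest. Whether the RNA, the genes each animal carries or the match of the probe to each animal's allele differed was not tested.

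**Figure D5:**
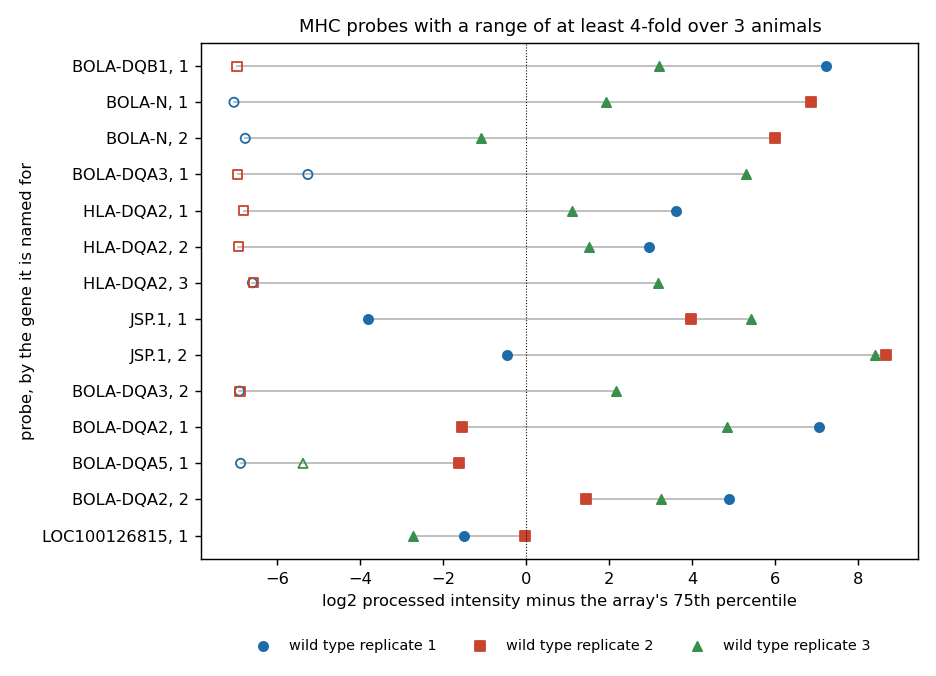
Levels of the 14 MHC probes with a range of at least 4-fold and a signal in at least 1 animal, 1 row per probe, numbered within a gene by range, with open markers for signals not well above background. The BOLA-DQB1 and BOLA-DQA2 rows and 2 of the 3 HLA-DQA2 rows stand highest in replicate 1 and low or off in replicate 2, and the BOLA-N and JSP.1 rows stand low or off in replicate 1.

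A pair of class I probes shows how few bases separate probes that part in the same animals. They cover the same 60 bases and differ at 6, given in capitals. The JSP.1 probe stood at -3.82, 3.98 and 5.41 and the BOLA-N probe was off in replicate 1 and stood at 6.0 and -1.10 in replicates 2 and 3, so that replicate 3 was the higher of these 2 animals at one and the lower at the other. The HLA-DQA2 probe on in replicate 3 and the brighter BOLA-DQA3 probe overlap by 51 bases with 2 differences, and both were on in replicate 3 alone.
JSP.1 probe: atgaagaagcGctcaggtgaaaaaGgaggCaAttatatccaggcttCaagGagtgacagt
BOLA-N probe: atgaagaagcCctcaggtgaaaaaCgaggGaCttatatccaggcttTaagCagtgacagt

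At the other end, 10 genes with a mean level above 0 had ranges of at most 0.03. These are the smallest among 5748 such genes, and lie below the median range of 0.15 over 4 spots of a probe on 1 array. Their rank therefore does not show that they are steadier than other genes. JAK1, a kinase of cytokine receptors, stood at 4.98, 4.99 and 4.99 at its brightest probe, while its other 3 probes had ranges of 0.29, 0.37 and 0.04. MAP1LC3B, of autophagosomes, stood at 3.50, 3.51 and 3.51, and NASP, a histone chaperone, at 2.44, 2.45 and 2.46, with 0.03 and 0.26 at its further probes. The others were COA8, PDHA1, COQ2, SEC24D, POLR2M, ENDOV and MGC152007. Further measured probes had ranges up to 0.49 for SEC24D, 0.23 for PDHA1, 0.22 for POLR2M, 0.10 for MAP1LC3B and 0.06 for COA8. COQ2, ENDOV and MGC152007 had no further measured probe. COA8, PDHA1 and COQ2 encode a factor of cytochrome oxidase assembly, a subunit of pyruvate dehydrogenase and an enzyme of coenzyme Q synthesis, all in mitochondria. Under quantile normalization the median range of the 10 was 0.25 and the highest 0.48. Of the common reference genes, ACTB had a range of 0.60, GAPDH, at 7.98, 8.27 and 7.60, one of 0.67 and PPIA, at 7.94, 8.01 and 7.68, one of 0.34, against the median of 0.57.

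A further 4289 probes were well above background in 1 or 2 animals only, 1073 of them in replicate 2 alone, 837 in replicate 1 alone and 521 in replicate 3 alone. Most were near the limit: 283 differed by at least 4-fold and 11 by at least 16-fold, where the dim animals are taken at no less than the lowest signal that counted as well above background. Of the 11, 8 were MHC probes and 1 was the second HBM probe. MGC126945, a gene without a given function, was off in replicate 1 at one probe and at 1.68 and 1.19 in replicates 2 and 3. ARG1, the arginase of neutrophils and liver, was on in replicates 2 and 3 at one probe, at 1.13 and -3.32, and in replicate 2 alone at another, at -0.97.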

How the data were processed

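RNA from whole blood was extracted with Trizol and RNeasy columns, and labelled as cRNA with Cy3, per the labels' protocols. The deposited scanner files hold spot intensity from 1-colour Agilent bovine arrays, made with Feature Extraction 10.7.1.1 per the file headers, background-subtracted and not scaled between arrays. The scanner's flags, 0 or 1, are used as deposited. The file of wild type replicate 2 holds 3 significant digits. The authors' value table, deposited as log2 values with a median of 6.38 in each column, was an alternative: its columns correlated with their own arrays at 0.999 and with others at 0.982 or below, and 3 columns of other animals were not used. The sources used here do not say how the authors made it.

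Log2 values of processed intensity were averaged over spots of a probe, and the 75th percentile of non-control probes was subtracted array by array. Of 24209 probes well above background on all 3 arrays, 24195 remained once spots called outliers had been dropped. Python 3.11.15, numpy 2.4.6, pandas 2.3.3 and limma 3.58.1 in R 4.3.3 (normexp with an offset of 50) were used, and the range count and the choice of the deviating animal were tested on simulated data. Gene names came from accessions matched to RefSeq genes of ARS-UCD2.0 (20595 probes), from current symbols (10745) or older ones (376), or from the file alone (601), and 11336 probes had none. Positions are those of the files on Btau_3.1, for 41544 probes, and no exons are given, for want of an annotation of the same build.

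Named are the 30 symbols with the highest mean level, the 20 with the widest range, the 10 with the smallest range above a level of 0, in each list up to 6 of the brightest members, up to 2 of the widest and members that define the type and were not well above background, and ACTB, GAPDH and PPIA. Other genes and all choices of single probes were named after their values were seen. Members, lists and rules were chosen with earlier results of these data known. The labels do not say whether the replicates are separate animals. Some genes that the rule names are not reported here.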

Additional observations from a re-analysis of the deposited data

How the results depend on the processing

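Counts kept within 1.5 times of those reported under most alternatives. Without a filter on dim probes the probes numbered 43619 and those with a 2-fold range 9776, and averaging a gene's probes kept 66 of the brightest 100 symbols. Leaving out 1 animal gave 1003 to 3142 probes with a 2-fold range, the lowest without replicate 2, 24366 to 25306 measured probes, 17 to 19 lists above the 75th percentile, 15 to 19 with a wider median range than all genes, and 98 to 99 of the brightest 100 symbols. Normexp background correction gave 2616 probes with a 2-fold range, 2062 of them among the 3900, and quantile normalization 3823, 3554 of them shared. Of 243 named genes, quantile normalization moved the range of 98 by more than the SD of the animals and the level of none, normexp moved the level of 66, and averaging probes that of 134. All 20 of the widest genes kept a 2-fold range under each scaling and background correction, the lowest being 1.81 with normexp, and 13 did without replicate 2 and 17 without replicate 1. The median deviation of ribosomal proteins in replicate 2 was 0.26, and 0.28 with the array median, 0.29 with normexp and -0.02 after quantile normalization. Quantile normalization also turned that of translation factors, from 0.17 to -0.10, the proteasome, from 0.17 to -0.08, and platelet genes, from 0.08 to -0.10. It likewise turned oxidative phosphorylation, from 0.22 to -0.03, housekeeping genes, from 0.21 to -0.03, and MHC class II, from 0.19 to -0.02. The sign held in the other lists. Glycolysis went from 0.32 to 0.08, MHC class I from 0.32 to 0.09 and actin cytoskeleton genes from 0.29 to 0.02. No paired analysis was possible because there was 1 group and no test, and no slide block because all arrays share a slide. Signal over background limits the dim end, where 15139 probes gave no measured level.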

Other observations

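Some bright genes belonged to no list. They were named after their values were seen. IFITM2, of a family of interferon-induced membrane proteins, had a mean level of 8.54 and a range of 0.51, KLF13, a zinc finger factor, 8.16 and 0.35, and S100A4, a calcium-binding protein, 8.01 and 0.89. LAPTM5, a lysosomal membrane protein of leukocytes, had 7.93 and 0.57, and CFD, complement factor D, 7.90 and 0.84. Of the brightest 100 symbols, 16 were in none of the lists, and of the brightest 100 probes 9 had no gene symbol.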
